A study of Danio rerio with 8 samples.

Results

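The 10 genes described here encode transcription factors, and one adaptor protein, that direct red cell, stem cell and myeloid development without being GATA factors. They were taken as a list of names: klf1, gfi1b and nfe2 for the red cell and thrombocyte lineages, tal1, lmo2, runx1 and myb for stem and progenitor cells, and SPI1 (ENSDARG00000000767), spi1a and cebpa for myeloid cells. Each matched 1 of the 31953 gene IDs counted, 8 of which carry a capital symbol in the naming table, and all 10 had counts in each of the 6 heart libraries. The study set 21 days post fertilisation (dpf) hearts of zfpm1 mutant zebrafish against hearts of fish labelled control, all of the TU strain, with 3 libraries per genotype, to find genes that act downstream of zfpm1 as the heart chambers mature. zfpm1 encodes a FOG family zinc finger protein that binds GATA factors. The labels name neither the mutant allele nor the number of fish behind a library, so p-values measure the spread between libraries, which may be partly technical. One library labelled as 36 hours post fertilisation (hpf) embryos exists for each genotype, and both are treated apart for a reason given next.

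Gene counts per heart library ranged from 7614329 to 9909966. The file labelled control embryo had the same total over all lines (19276348) as mutant heart replicate 1, and the file labelled mutant embryo the same total (22649056) as control heart replicate 1, with equal numbers of reads not uniquely aligned. The embryo-labelled files were therefore not used as samples of their own, and the one member call that changed without both heart libraries numbered 1, that of myb, is given with its fold change. Heart muscle markers summed to between 36525 and 46154 CPM in controls and between 18101 and 29256 CPM in mutants, and none of the 9 tested was called. Red cell markers fell in 11 of 13 tested. Liver markers rose in 13 of 13, macrophage markers in 13 of 14 and granulocyte markers in 3 of 7. None of 11 endothelial markers was called. The targeted gene ZFPM1 stood at 49.0 ± 5.80 CPM in the 3 controls and 69.2 ± 20.4 CPM in the 3 mutants (mean and SD; edgeR adjusted p 0.241), which does not check the genotype labels, since a mutant allele can still be transcribed.

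Blood lineages part from shared progenitors under transcription factors that switch on one set of genes and hold others off. In mammals and zebrafish the TAL1 and LMO2 proteins join with GATA factors, LDB1 and E proteins in a DNA-bound complex of stem and red cells, KLF1 drives globin, haem and membrane genes, and the ETS factor PU.1, the product of the spi1 genes, drives macrophage and granulocyte genes. Zebrafish red cells keep their nucleus, and blood in a dissected heart contributes its transcripts to the library.

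In mutant hearts the red cell regulators klf1 and gfi1b fell most, tal1 and lmo2 fell less, and both spi1 genes rose. Levels are TMM-scaled CPM, a gene's counts as a share of the library's gene counts, and a gene was called when the adjusted p of edgeR's quasi-likelihood test, corrected over all 16707 genes tested, was under 0.05. Of the 9 members that passed the filter on low counts, 4 fell, 2 rose and 3 were not called, and runx1 was too low to be tested. Over all genes 9.43% were called, 7.02% higher and 2.42% lower. The median log2 fold change of the 9 tested members was -0.88, against -0.01 over all genes. For 8 of the 9 the control and mutant ranges were separate, 5 with the mutants lower and 3 with the mutants higher, which was so for 29.7% of all tested genes. Other fits called 6 members with RLE scaling (9.36% of all genes) and with a filter of 1 CPM in 3 libraries (9.33%), 8 with library size alone (11.3%), and 7 each with DESeq2 (13.5%), no filter (6.99%), replicate number as a block (8.83%) and both libraries numbered 1 left out (7.42%). Leaving out 1 library called 6, 6 and 5 members without control replicates 1 to 3 (6.06%, 5.9% and 3.46%), and 7, 5 and 6 without mutant replicates 1 to 3 (6.41%, 6.71% and 7.48%). In bulk tissue, fewer cells of a type and less RNA per cell cannot be told apart.

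**Figure D1:**
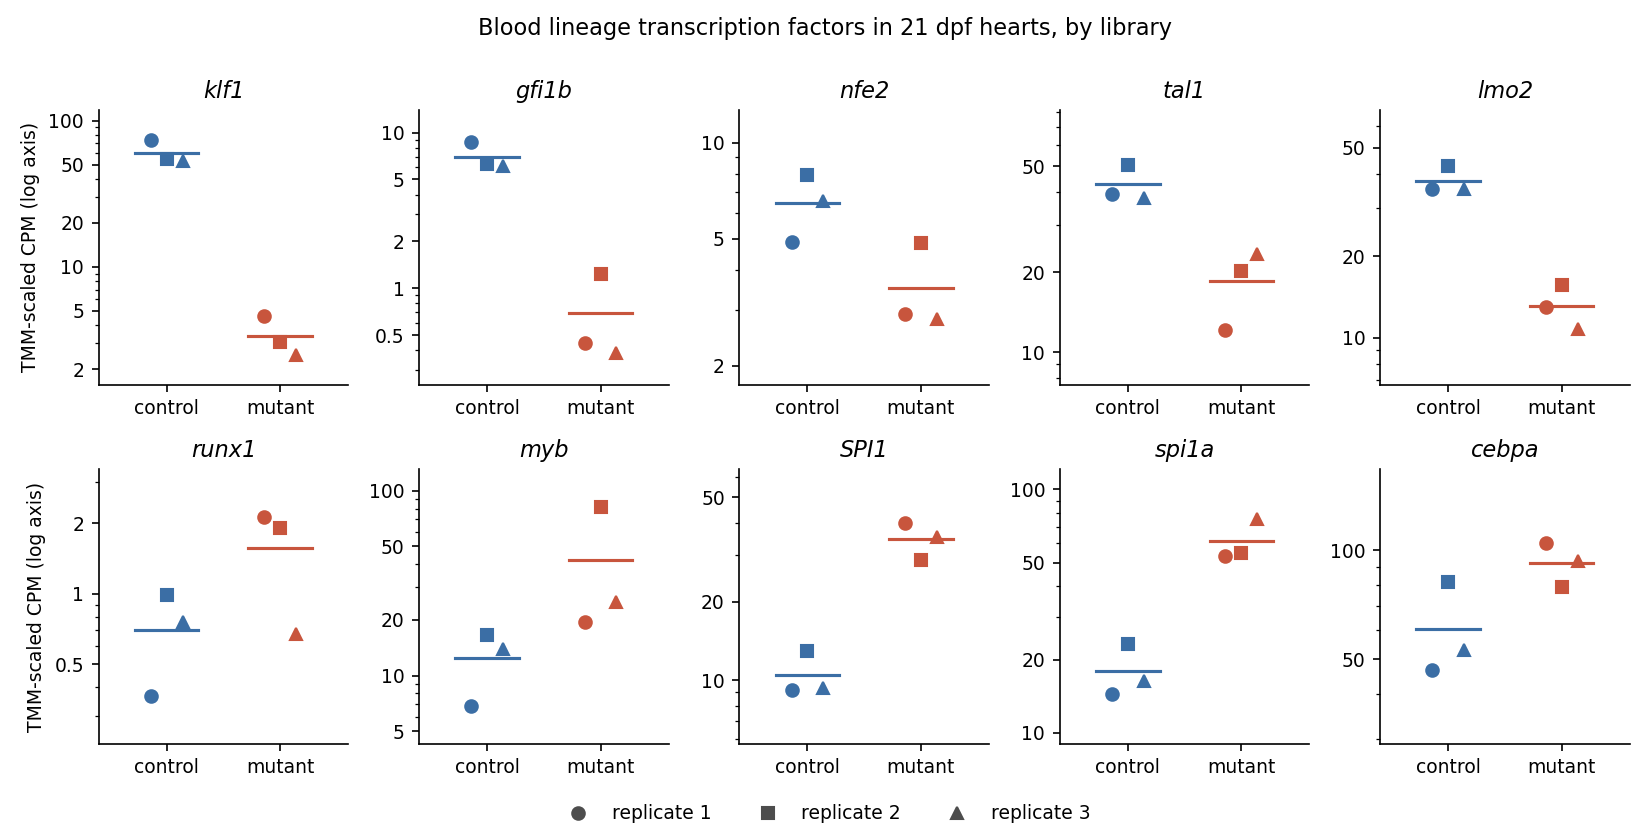
TMM-scaled CPM on a log axis for each of the 10 regulators in the 3 control and 3 mutant hearts; symbols mark the replicate number and bars the group mean. The groups lie far apart for klf1 and gfi1b, clear of each other for tal1, lmo2, SPI1 and spi1a, and overlap for runx1 and cebpa.

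klf1 (ENSDARG00000017400), the Krüppel-like activator of red cell genes, had 603, 444 and 418 counts in control replicates 1 to 3 and 41, 27 and 26 in mutant replicates 1 to 3. Its levels were 73.8, 54.7 and 52.7 CPM in controls and 4.59, 3.04 and 2.5 CPM in mutants. Every mutant heart lay below every control heart, and the lowest control was still 11.5 times the highest mutant. The log2 fold change was -4.16 (SE 0.29, 95% interval -4.82 to -3.50, adjusted p 0.000119), a 17.9-fold lower mean. Across the 6 fits that each left out 1 library it ran from -4.43 to -3.99 and stayed called.

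gfi1b (ENSDARG00000079947), a zinc finger repressor that red cell and megakaryocyte development needs, was counted far less often. Control hearts held 71, 51 and 48 counts, and mutant hearts 4, 11 and 4. These are 8.69, 6.29 and 6.05 CPM against 0.448, 1.24 and 0.385 CPM, and the groups were clear of each other by 4.89-fold. The log2 fold change was -3.33 (SE 0.53, 95% interval -4.53 to -2.13, adjusted p 0.00587). Mutant replicate 2 held 11 of the 19 mutant counts, and without it the log2 fold change was -4.03 (adjusted p 0.00535). Without both libraries numbered 1 it was -2.91 (adjusted p 0.0270). Among the thrombocyte markers, 3 of 8 tested were lower, gp9 (log2 fold change -4.10), GP1BB (-2.98) and itga2b (-4.55), and 1 of the 2 FERMT3 IDs was higher (2.51). The list's median was -0.45 and its 11 IDs summed to between 173 and 188 CPM in controls and between 190 and 218 CPM in mutants. Much of this sum came from 1 THBS1 ID, with means of 78.0 CPM in the 3 controls and 120 CPM in the 3 mutants. That ID was not called (log2 fold change 0.63). The sum therefore says little about gp9, GP1BB and itga2b. The part of the thrombocyte markers in the gfi1b level was not tested.

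nfe2 (ENSDARG00000020606), which encodes the large subunit of NF-E2, a factor of late megakaryocyte and red cell genes in mammals, was not called. It stood at 4.89, 7.89 and 6.56 CPM in controls and 2.91, 4.84 and 2.79 CPM in mutants. The lowest control and the highest mutant were nearly level, at 1.01 times. Its log2 fold change was -0.88 (SE 0.38, 95% interval -1.74 to -0.01, edgeR adjusted p 0.207), and none of the 13 other fits called it.

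tal1 (ENSDARG00000019930), the helix-loop-helix factor that blood and vessel precursors need, fell from 39.3, 50.7 and 38.1 CPM in control replicates 1 to 3 to 12.1, 20.1 and 23.3 CPM in the mutants. All mutants were lower, by at least 1.63 times, and mutant replicate 1 was lowest. The log2 fold change was -1.2 (SE 0.27, 95% interval -1.81 to -0.60, adjusted p 0.0254). This was the least secure of the 6 calls: the adjusted p was 0.0781 without control replicate 2, 0.0781 without control replicate 3 and 0.0593 without mutant replicate 2, with log2 fold changes of -1.07, -1.29 and -1.26.

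lmo2 (ENSDARG00000095019), the LIM-only adaptor that bridges TAL1 and GATA proteins, stood at 35.4, 42.9 and 35.3 CPM in controls and 13, 15.6 and 10.8 CPM in mutants. The lowest control was 2.26 times the highest mutant. Its log2 fold change of -1.53 (SE 0.22, 95% interval -2.02 to -1.04, adjusted p 0.00351) ran from -1.67 to -1.41 with 1 library left out, and the call held each time.

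SPI1 (ENSDARG00000000767) and spi1a (ENSDARG00000067797), both encoding PU.1 proteins, rose by nearly the same amount. SPI1 had 75, 105 and 74 counts in controls and 357, 257 and 366 in mutants, or 9.17, 12.9 and 9.33 CPM against 39.9, 28.9 and 35.2 CPM. Each mutant heart was at least 2.23 times each control heart, with a log2 fold change of 1.73 (SE 0.23, 95% interval 1.2 to 2.25, adjusted p 0.00286). spi1a stood at 14.4, 23.2 and 16.4 CPM in controls and 53.0, 54.8 and 75.5 CPM in mutants. Here too the groups were apart, by 2.29-fold, and the log2 fold change was 1.76 (SE 0.25, 95% interval 1.2 to 2.32, adjusted p 0.00330). Both calls held in each of the 13 other fits. The log2 ratio of spi1a to SPI1 was 0.77 ± 0.10 in the 3 controls and 0.81 ± 0.36 in the 3 mutants (mean and SD), a difference of 0.04 (exact two-sided permutation p 0.8).

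cebpa (ENSDARG00000036074), a leucine zipper factor of granulocyte precursors that hepatocytes and fat cells also make, was not called. It stood at 46.6, 81.8 and 53.0 CPM in controls and 104.9, 79.4 and 93.4 CPM in mutants. The groups overlapped, since control replicate 2 was above mutant replicate 2. Its log2 fold change was 0.61 (SE 0.24, 95% interval 0.07 to 1.16, edgeR adjusted p 0.163). With library size alone as scaling it was 0.90 (adjusted p 0.0396), and without control replicate 2 it was 0.89 (adjusted p 0.0491), so both of these fits called it. The 14 liver markers summed to 137 to 161 CPM in control hearts and to 5700, 3525 and 2706 CPM in mutant replicates 1 to 3. The 7 granulocyte markers summed to 191 to 253 CPM in controls and 282 to 385 CPM in mutants, and 3 were called higher. The part of either list in the cebpa level was not tested.

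myb (ENSDARG00000053666), a factor of stem cells and of early lymphoid and myeloid cells, was set apart by 1 library. Control hearts stood at 6.85, 16.5 and 14 CPM and mutant hearts at 19.6, 81.4 and 25.1 CPM. The groups did not overlap, but the lowest mutant was only 1.19 times the highest control, and mutant replicate 2 was over 3 times either of the other mutants. The log2 fold change was 1.75 (SE 0.55, 95% interval 0.51 to 2.99) with an edgeR adjusted p of 0.0866. Without mutant replicate 2 it was 0.85 (adjusted p 0.231), and without mutant replicate 1 it was 2.12 (adjusted p 0.0417). DESeq2 called myb higher at an adjusted p of 0.00860, and so did the edgeR fits with library size alone (0.0453), with no filter (0.0409) and without both libraries numbered 1 (0.0396, log2 fold change 1.82).

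Some lymphoid transcripts were high in the same library. The 11 lymphoid markers summed to 18.1, 32.1 and 18.7 CPM in control replicates 1 to 3 and to 17.5, 512 and 30.0 CPM in mutant replicates 1 to 3. Of the 5 tested only blnk, a B cell adaptor gene, was called (log2 fold change 2.15), and it did not follow that pattern, at 10.4, 8.55 and 12 CPM in mutant replicates 1 to 3. Below the filter were cd8a, cd79a, cd79b, ighm, ZAP70 and PAX5. The following genes were singled out after their values had been seen. RAG1, a recombinase gene of developing lymphocytes, stood at 411 CPM in mutant replicate 2 against 2.91 to 19.7 CPM among the other 5 hearts, and lck, a T cell kinase gene, at 32.2 CPM against 0.112 to 2.96 CPM. The T cell factor gene TCF7 (17.1 CPM), the runx1 relative RUNX3 (62.6 CPM) and the lymphoid regulator IKZF1 (17.6 CPM) were also highest there. So were RAG2 (18.2 CPM) and, below the filter, ZAP70 (19.5 CPM) and cd8a (6.64 CPM), whereas cd79b and PAX5 had no count in that library. Among the 11 kidney marker genes, atp1a1a.4 and CDH17 stood at 93.4 and 43.3 CPM in mutant replicate 2, at 22.6 and 4.48 CPM in mutant replicate 1 and no higher than 0.979 CPM elsewhere, while SLC12A1 and SLC12A3 had no count in any heart. LRP2 (29.2, 8.55 and 16.7 CPM in mutant replicates 1 to 3) and wt1b (37.3, 18.6 and 23.2 CPM), from the same list, were lowest of the mutants in replicate 2. Both were also present in every control heart, at 7.65 to 16.1 and 7.22 to 16.6 CPM, so their source in these hearts is not known. None of the 3 tested kidney markers was called. The part of these transcripts' source in the myb level was not tested.

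**Figure D2:**
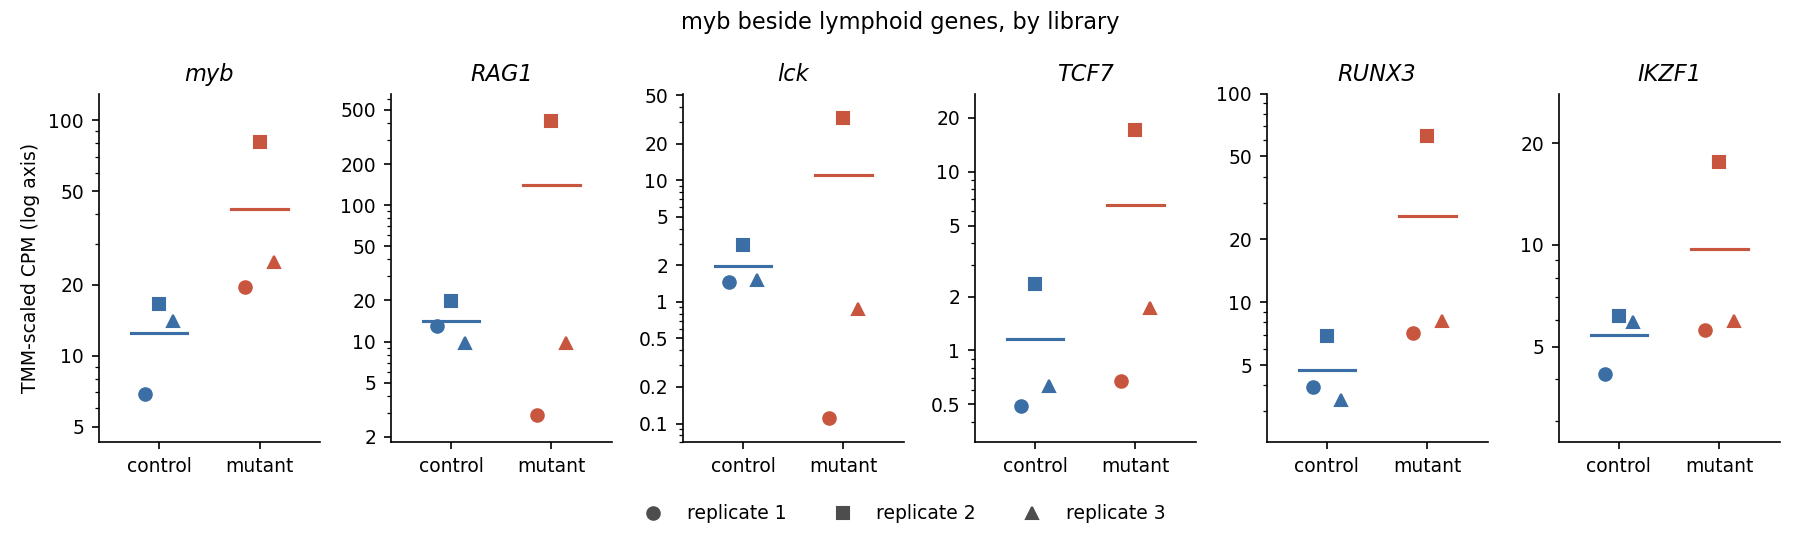
TMM-scaled CPM on log axes for myb and 5 lymphoid genes in each heart library, with bars at the group mean and symbols for the replicate number. Mutant replicate 2 (square) is the highest library in all 6 panels, at 81.4 CPM for myb and 411 CPM for RAG1, while mutant replicates 1 and 3 lie near or below the controls for RAG1 and lck.

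runx1 (ENSDARG00000087646), needed for the first definitive stem cells, had only 3, 8 and 6 counts in control and 19, 17 and 7 in mutant hearts. These are 0.367, 0.986 and 0.757 CPM and 2.13, 1.91 and 0.674 CPM, and the groups overlap because mutant replicate 3 lies among the controls. Summed over libraries, 43 mutant against 17 control counts give a ratio of 2.17 with an exact 95% interval of 1.21 to 4.06 that covers counting error only. With no filter the log2 fold change was 1.11 (SE 0.78, edgeR adjusted p 0.494), which was not called. The 4 fits without 1 library in which runx1 passed the filter gave adjusted p from 0.257 to 0.572.

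**Figure D3:**
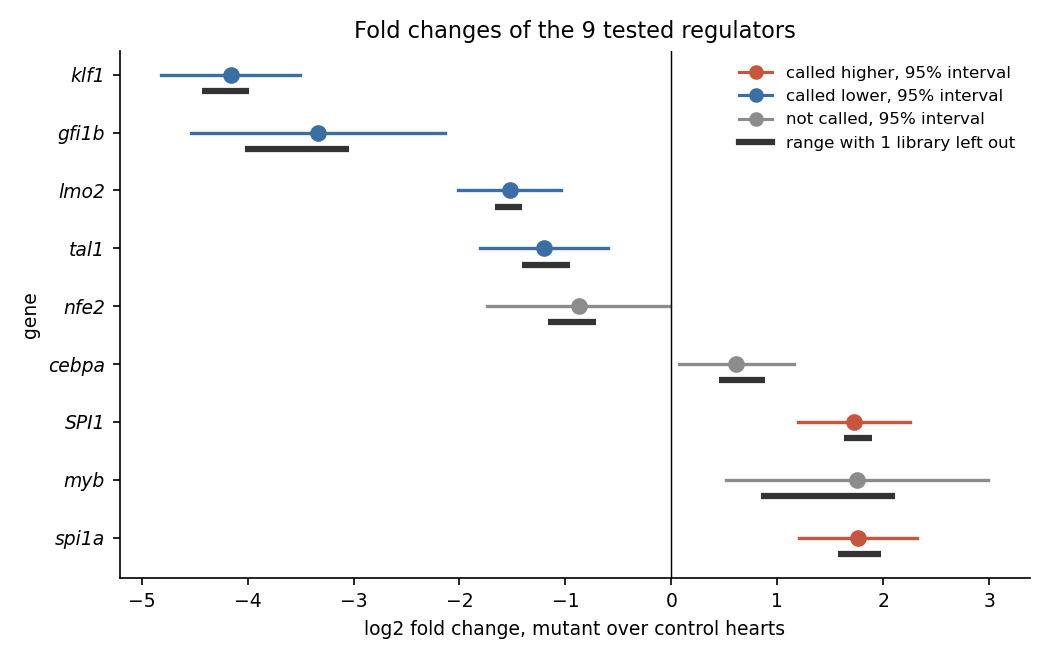
Log2 fold changes of mutant over control hearts for the 9 tested regulators, with 95% intervals, and below each the range over the 6 fits that left out 1 library. The 4 genes that fell run from -4.16 (klf1) to -1.2 (tal1), and SPI1 and spi1a lie at 1.73 and 1.76. The ranges of fold change with 1 library left out are widest for myb and gfi1b, though gfi1b stayed called in all 6 fits.

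The 95% intervals of klf1 and gfi1b overlapped, and that of klf1 was apart from those of the other 7 tested members, in all 12 other fits that give intervals too. gfi1b was apart from lmo2, but the 2 intervals overlapped in 5 of those 12 fits. lmo2, tal1 and nfe2 overlapped one another, as did SPI1, myb and spi1a. cebpa overlapped myb; it was apart from SPI1 and spi1a, though not in 7 and 5 of the 12 fits. Direct ratios between 6 pairs of members were set side by side per library; with 3 libraries against 3 the smallest exact two-sided permutation p is 0.1, which is 0.2 after Benjamini-Hochberg adjustment over the pairs. The log2 ratio of lmo2 to klf1 was -1.06, -0.35 and -0.58 in controls and 1.5, 2.36 and 2.11 in mutants, a difference of 2.65 (exact p 0.1, adjusted 0.2). The log2 ratio of cebpa to SPI1 was 2.34, 2.66 and 2.5 in controls and 1.39, 1.46 and 1.41 in mutants, a difference of -1.08 (exact p 0.1, adjusted 0.2). For both pairs the control and mutant ratios were separate, whereas gfi1b to klf1 (difference 0.66, exact p 0.4) and lmo2 to tal1 (difference -0.29, exact p 0.6) overlapped between genotypes. Between lineages, the log2 ratio of the red cell factor gene klf1 to the myeloid factor gene SPI1 was 3.01, 2.08 and 2.5 in controls and -3.12, -3.25 and -3.82 in mutants. The difference of -5.92 (exact permutation p 0.1, adjusted 0.2) restates the opposite calls of klf1 and SPI1 and adds no support to them.

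Members were then set against a summed marker list in the same library: klf1, gfi1b, nfe2, tal1 and lmo2 against red cell markers, and the other 5 against pan-leukocyte markers. No stem cell marker list was used. The 15 red cell marker IDs, globins left out, summed to between 7237 and 9286 CPM in controls and between 692 and 842 CPM in mutants, with a median log2 fold change of -4.58 over the 13 tested. In mutants 73.7% of this sum came from RHAG and SPTB, against 12.6% in controls, with log2 fold changes of -0.44 (not called) and -1.32. For klf1 and gfi1b the comparison depended on how the markers were summarised. The log2 ratio of klf1 was lower in mutants by 0.74 with these 2 markers in the sum and higher by 1.00 without them. That of gfi1b was higher by 0.02 with them and by 1.76 without. Against the mean log2 CPM of the 15 markers the differences were -0.70 for klf1 and 0.06 for gfi1b. Against the median change of the tested markers they were 0.53 and 1.29. No direction relative to the red cell markers is therefore given for either gene. lmo2, tal1 and nfe2, the last not itself called lower, had higher log2 ratios to the markers in each mutant than in each control. The mean differences were 1.89, 2.18 and 2.54 (exact permutation p 0.1 each, the smallest possible, and 0.2 adjusted over the 10 members). The marker sum was far lower in every mutant, so a gene that changed little has a higher ratio in any case. The ratios show only that these genes were lower by less than the sum, and the test adds no support. Without RHAG and SPTB, left out after the data were seen, the differences for lmo2, tal1 and nfe2 were 3.63, 3.92 and 4.28. Both markers fell less than the marker sum, so leaving them out raises the difference for any gene and adds no support. Endothelial cells also make tal1 and lmo2, and the summed endothelial markers lay between 1660 and 2084 CPM in controls and between 1253 and 1659 CPM in mutants. Their part in the tal1 and lmo2 levels was not tested.

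The 14 pan-leukocyte marker IDs summed to 100.2 to 190 CPM in controls and 503 to 610 CPM in mutants, with 12 of 13 tested called higher and a median log2 fold change of 1.96. SPI1 and spi1a had log2 ratios to these markers lower by 0.34 and 0.30 on average, with overlapping groups (exact permutation p 0.2 and 0.3). Against the median change of the tested markers, a variant added after the data were seen, they were lower by 0.42 and 0.38. The exact permutation p values were then 0.1, the smallest possible, and 0.3, not adjusted over the members. The ratio for cebpa was lower in every mutant than in every control, by 1.42 (exact p 0.1, adjusted 0.2). In controls cebpa alone stood at 46.6 to 81.8 CPM, beside 100.2 to 190 CPM for the whole marker sum. Hepatocytes and fat cells also make cebpa, so this ratio does not give its level within leukocytes. The part of other cells in it was not tested. For myb and runx1 the ratios overlapped, with differences of -0.52 and -1.04.

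**Figure D4:**
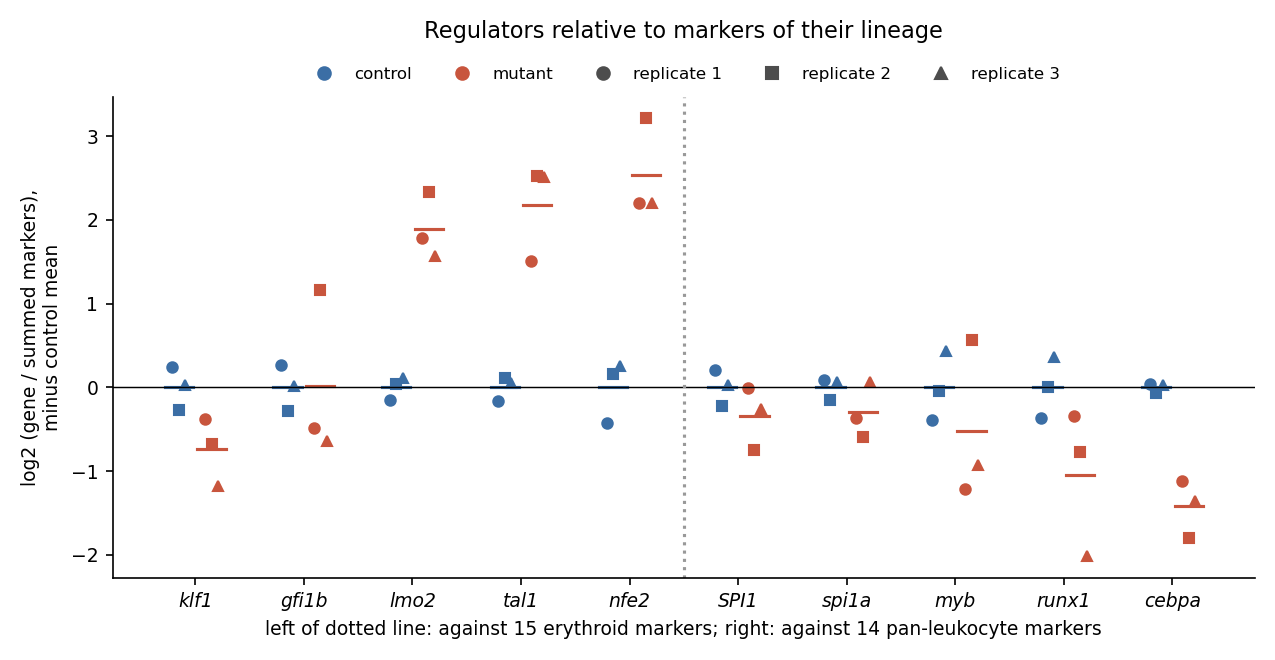
Log2 ratio of each regulator to the summed CPM of red cell markers (left of the dotted line) or pan-leukocyte markers (right), minus the control mean, for each heart library; bars are group means. The mutant means of lmo2, tal1 and nfe2 lie 1.89 to 2.54 above the control means, those of SPI1 and spi1a 0.34 and 0.30 below, klf1 0.74 below and cebpa 1.42 below; without RHAG and SPTB klf1 lies 1.00 above.

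Other genes of the blood regulatory network, 60 IDs in 5 lists, were looked at beside the members. Of 50 tested, 10 were higher and 2 lower, where 7.02% of all genes were higher and 2.42% lower. The median log2 fold change was 0.38 against -0.01 over all genes. Of those that rose, csf1ra is also in the macrophage marker list and CSF3R in the granulocyte marker list. None of the 8 tested IDs listed as partners of TAL1 and LMO2 was called. The list left out GATA factors, its lyl1 matched no ID, and lmo4a and LMO4 were among the IDs. LDB1, whose protein joins TAL1 and LMO2 in their complex, had log2 fold changes of 0.12 and -0.66 for its 2 IDs. The E protein genes tcf3a, tcf3b and TCF12 had 0.26, 0.12 and 0.15 (edgeR adjusted p 0.325 to 0.777 for these 5 IDs). lmo2 and tal1 were thus called lower while the listed genes were not, although the difference between them was not itself tested. The complex as a whole was not surveyed.

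The 2 that fell are of the red cell lineage. klf17, a Krüppel-like gene of the zebrafish embryo's blood islands, stood at 33.5, 30.8 and 36.8 CPM in controls and 2.91, 2.36 and 3.85 CPM in mutants (log2 fold change -3.46, SE 0.26). The erythropoietin receptor gene EPOR stood at 68.7, 45.4 and 39.5 CPM against 3.69, 5.85 and 4.43 CPM (log2 fold change -3.46, SE 0.30). Both genes were far lower in every mutant, and the other 12 tested red cell and megakaryocyte regulators were not called.

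Among the 12 tested myeloid and lymphoid regulators 4 rose. IRF8, which macrophage development needs, rose by a log2 fold change of 1.89 (SE 0.22), the inhibitor of DNA binding gene ID2 by 1.95 (SE 0.27), and CEBPB and CEBPD, relatives of cebpa, by 2.29 (SE 0.41) and 1.15 (SE 0.22). CBFB, the shared binding partner of RUNX proteins, stood at 30.6 to 36.6 CPM in controls and 72.3 to 77.8 CPM in mutants (log2 fold change 1.2, SE 0.17) and was the 1 of 10 stem cell regulators that rose. Of 7 tested cytokine receptors 5 rose, among them the macrophage receptors csf1ra (log2 fold change 2.02, SE 0.22) and csf1rb (2.62, SE 0.32), and the granulocyte receptor CSF3R (2.82, SE 0.47). The thrombopoietin receptor gene mpl was below the filter, at 0.617 to 2.2 CPM in controls and 0.0963 to 0.675 CPM in mutants.

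**Figure D5:**
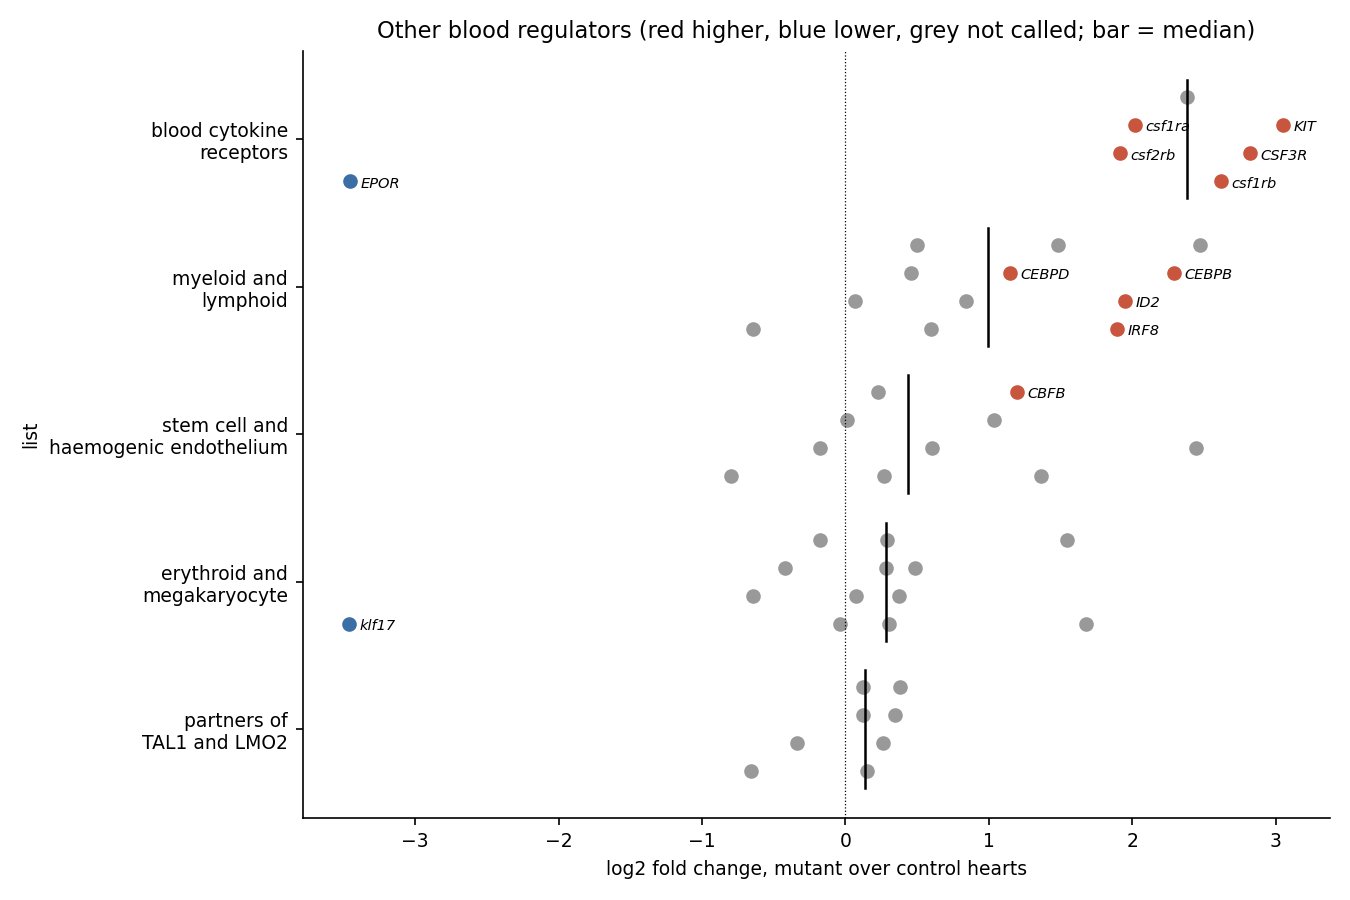
Log2 fold changes of the tested genes in 5 lists of other blood regulators; red points were called higher, blue lower, grey were not called, and the bar is the list's median. EPOR and klf17 lie near -3.46, and the called myeloid regulators lie between 1.15 and 2.29. The 8 IDs listed as partners of TAL1 and LMO2 lie between -0.66 and 0.38 with none called.

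Profiles over the 6 heart libraries were compared with those of 11657 other genes by the root mean square difference of log2 CPM, each gene centred on its own mean. The measure follows the fold change between genotypes as well as the spread within them, so nearness alone does not show a shared lineage. The gene closest to klf1 was add2, a red cell membrane skeleton gene, at 0.184, followed by SLC10A4 (0.329) and fabp10b (0.362). Nearest to gfi1b lay SEPTIN3 (0.289), apof (0.299) and itga2b (0.305), the last a thrombocyte integrin. In mutant replicates 1 to 3 itga2b had only 0, 3 and 1 counts and gfi1b 4, 11 and 4. The log2 CPM here used a prior count of 2, which draws such low levels together. For lmo2 they were CPNE9 (0.128), eif2ak1 (0.157), which encodes the haem-regulated translation kinase, and the ferritin gene fth1a (0.172). SPI1 was most like trpv1 (0.0852), IRF8 (0.120) and the kinase gene tec (0.147). spi1a was closest to NCKAP1L (0.113), a blood cell actin regulator, then to irf3 (0.133) and xaf1 (0.136).

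The embryo-labelled files give another count of the same members for both libraries numbered 1; they are no independent repeat. Without TMM scaling, klf1 stood at 73.0 CPM and SPI1 at 5.55 CPM in the file labelled mutant embryo, against 4.15 and 42.3 CPM in the one labelled control embryo, so the genotype labels run opposite to the heart libraries with the same totals. The median ratio of the heart count to its embryo-labelled partner was 0.504 for control replicate 1 (12894 genes with at least 50 counts) and 0.503 for mutant replicate 1 (14361 genes). Lines in no feature made up 47.5% and 48.8% of these heart files and 9.53% and 10.03% of the embryo-labelled ones; the cause was not tested. Among members with at least 50 embryo-labelled counts, SPI1 in control replicate 1 (0.806, from 75 and 93 counts) and klf1 in mutant replicate 1 (0.672, from 41 and 61 counts) lay above the 95th percentile of genes, 0.628 and 0.632. The log2 ratio of mutant to control replicate 1 had the same sign in both kinds of file for all 10 members. It was -3.68 in the heart and -4.14 in the embryo-labelled files for klf1, 2.45 and 2.93 for SPI1, and -1.37 and -1.38 for tal1.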

How the data were processed

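RNA was measured in 6 libraries of 21 dpf hearts and 2 labelled as 36 hpf embryos. The authors deposited raw counts of reads for each gene. Per the submitters' processing notes, TopHat2 2.2.1, Bowtie2 2.2.3 and HTSeq 0.6.1p1 were used with GRCz10. Strand setting and gene annotation were not given in the sources used here. The labelled library protocol has no step that marks strand, so reads of an antisense neighbour cannot be told apart. In heart files 42.4% to 48.8% of all lines was in no feature and 11.1% to 21.8% not uniquely aligned; these lines were left out.

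Heart libraries were fitted with edgeR 4.0.16 in R 4.3.3 (filterByExpr, minimum count 10; TMM; quasi-likelihood F test; group as the only term; Benjamini-Hochberg adjustment), and checked on simulated counts. Alternatives were DESeq2 1.42.0, RLE and library size scaling, other filters, a replicate block, and left-out libraries. Marker ratios used a prior count of 0.5 and exact permutation tests in SciPy 1.17.1. Intervals of counts cover counting error only. Symbols came from a table naming gene IDs (26121 of 31953).

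Members, gene lists and tests were chosen with earlier results of these data known. Genes named beyond the members were drawn from ZFPM1, the called genes of each list, at most 4, with the lowest adjusted p, and the 3 nearest profiles per member. Not all of these are named, and the called red cell markers with the lowest adjusted p are not. Exceptions, RHAG and SPTB among them, are examples of genes not called or were chosen after their values were seen. Promoter and protein sequences were not analysed here.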

Additional observations from a re-analysis of the deposited data

How the results depend on the processing

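Log2 fold changes of the 9 tested members kept their sign in all 13 alternative fits, and klf1, gfi1b, lmo2, SPI1 and spi1a were called in each. The number of genes called, 1576, ranged from 604 (without control replicate 3) to 1302 with 1 library left out, and was 1034 without control replicate 2. The log2 ratio of gfi1b to red cell markers, 0.02 higher in mutants, ranged from -0.56 (without mutant replicate 2) to 0.34 and was -0.13 without control replicate 2; the groups overlapped, so it has no settled direction. Scaling by library size alone moved the median of all genes by 0.26 in log2 and the share of higher calls from 74.4% to 87.5%. Same-numbered libraries had deviations correlating at 0.10, 0.22 and -0.08, and not every library correlated best with its own number, so the numbers were not taken to pair samples. With the replicate block 1476 genes and 7 members were called, myb among them (log2 fold change 1.56, adjusted p 0.0246). runx1 was below the filter on low counts. After the data were seen, marker ratios were repeated without RHAG and SPTB and against the median change of the tested markers: klf1, 0.74 lower against the sum, was then 1.00 and 0.53 higher, and none of the other members changed sign. In the planned variants klf1 stayed lower. Its difference was -0.70 against the mean log2 CPM of the markers, and -0.93 to -0.52 against the sum with 1 library left out.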

Other observations

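The 4 tested members not listed above with their nearest profiles were compared in the same way over 6 libraries. tal1 was closest to gpr35.1 (root mean square difference 0.0958 in log2 CPM), the phospholipid flippase gene ATP8A2 (0.122) and the tubulin gene tuba8l3 (0.129), and nfe2 to MTBP (0.0655), RAB15 (0.0831) and haus6 (0.0931). For cebpa the nearest were ANXA2 (0.0571), ALG11 (0.0662) and IRF2BPL (0.0709), none of which was called. myb lay farther from its neighbours, at 0.222 for spink2.5, 0.256 for the Ikaros family gene IKZF2 and 0.298 for SCGN.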
